A study of Mus musculus with 24 samples.

Results

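The comparison described here is between the livers of mice given dichloroacetic acid (DCA) at 2 g/L in their drinking water and those of control mice at 0 g/L. It takes 12 of the 24 liver RNA libraries of the study, 6 at each of these doses, by the dose in their labels. The mice were male B6C3F1, a hybrid laboratory strain, 4 weeks old, and exposure lasted 6 days. Each sample was about 20 mg of tissue from mixed lobes, kept frozen. Genes at 0.5 RPKM or more (reads scaled to gene length and library size) in at least 6 of the 12 libraries were tested, which kept 6313 of 15582 genes. The other 12 libraries, 6 at 1 g/L and 6 at 3.5 g/L, serve only to place 2 g/L between its neighbouring doses.

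DCA is a by-product of water chlorination and a known liver carcinogen in mice. It inhibits pyruvate dehydrogenase kinase and so keeps open the entry of pyruvate into the citric acid cycle. Fatty acids and several chlorinated acids act in mouse liver through the nuclear receptor PPARα, whose target genes carry fatty acids into peroxisomes and mitochondria, hydroxylate them at their far end and oxidise them. The same liver cells make most proteins of blood plasma, among them clotting factors and complement.

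A log2 fold below is the limma difference of log2(RPKM + 1), 2 g/L minus control, with its standard error (SE). For genes at low RPKM it is smaller than the fold of the RPKM themselves. A gene is said to rise or fall where its adjusted p, over the 6313 tested genes, was under 0.05. Values are given as the lowest, median and highest RPKM of the 6 libraries of a group. At 2 g/L 2521 genes rose (39.9%) and 553 fell (8.76%), so 48.7% were called, and a group of genes has to be read against these shares. A log2 fold of at least 1 either way was passed by 124 called genes (1.96%), 85 risen and 39 fallen. The 2 groups of libraries did not overlap in 1495 genes (23.7%). Of these, 1296 lay higher in all 6 treated libraries and 199 lay lower. Over all tested genes the median log2 fold was 0.12. With library factors by median ratio it was −0.002, and 1192 genes rose and 1150 fell. Small differences are therefore relative to the scaling. All 6 control libraries lay under 0.5 RPKM in 14 tested genes, which passed the filter through the treated libraries alone and rose, and all 6 treated libraries in 3 genes, which fell.

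Relative depth, read from the spacing of low values, ran from 0.951 to 1.075 over the 12 libraries. The first principal component held 57.9% of the variance and set the controls (−18.7 to −13.98) apart from 2 g/L (5.83 to 23.48). Library 78 had the lowest score of the treated libraries. Sample titles carry a tag, L1 on all controls and L2 on all 2 g/L libraries, whose meaning the labels do not state. The tag and the dose cannot be told apart within these 12 libraries. Libraries at 1 g/L hold 3 of each tag, and there the tag itself gave 0 calls by limma (0%) and 520 of 6313 genes at an unadjusted p under 0.05. Where nothing differs, a share of about 0.05 of genes falls under that p. With 3 libraries a side, 0 calls is not evidence of no difference. A fit of the 18 libraries at 0, 1 and 2 g/L with the tag as a term gave 858 calls, 621 risen and 237 fallen. Its median SE was 0.12 against 0.07, so a call can end in it at a like fold. After the count of a gene group, brackets give its rises and falls with the median-ratio factors and then with the tag as a term.

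Enzymes that oxidise fatty acids rose in the microsome, the peroxisome and the mitochondrion, and the microsomal Cyp4a14 and Cyp4a10 had the 2 largest log2 folds of all tested genes. Microsomal Cyp4a enzymes hydroxylate the far end of a fatty acid, the step before it is made into a dicarboxylic acid. Cyp4a14 (chromosome 4, 115486200 to 115496158, GRCm38 as in RefSeq) lay at 0.0566, 0.595 and 2.84 RPKM in control and at 173, 746 and 1127 at 2 g/L, a log2 fold of 8.42 (SE 0.42, adjusted p = 8e-08). The lowest treated library was thus far above the highest control. Its neighbour Cyp4a10 (chromosome 4, 115518287 to 115533649) lay at 0.251, 2.88 and 9.86 in control and at 184, 702.1 and 1151 at 2 g/L, a log2 fold of 7.20 (SE 0.49, adjusted p = 1.34e-06), again without overlap. Cyp4a31 (3.93) and Cyp4a32 (2.41) rose as well, and so did the fatty aldehyde dehydrogenase Aldh3a2 (3.07), which acts after the hydroxylases. In all 7 of 10 genes of this step rose and Cyp4f14 fell (−0.48), at a median log2 fold of 2.04 (7 up and 2 down by median ratio, 6 and 0 with the tag). Cyp4a12a, the male-predominant hydroxylase, stood at 0.27 (adjusted p = 0.258), while Cyp4a12b rose (1.67) with overlapping groups. Cyp4a genes are alike in sequence, so the division of reads among them is uncertain.

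Acyl-CoA thioesterases free fatty acids from coenzyme A. Of the 12 held, 9 passed the filter, and these 9 rose (8 up and 0 down by median ratio, 5 and 0 with the tag). Acot2 and Acot3, at most 0.449 and 0.0945 RPKM in control, were tested only because the treated libraries were high, so the 9 are not a count over the family. The cytosolic Acot1 lay at 0.741, 1.59 and 2.93 RPKM in control and at 6.04, 39.4 and 72.8 at 2 g/L, a log2 fold of 3.67 (SE 0.47, adjusted p = 5.43e-05). The mitochondrial Acot2 rose by 3.12, and the peroxisomal Acot3, Acot4 and Acot8 by 1.77, 1.43 and 1.03. The groups of Acot4 and Acot8 did not overlap. For Acot2 and Acot3 the filter itself set the lack of overlap, which is no support for the change. Acot1 and Acot2 are near-identical copies and may share reads.

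Peroxisomal β-oxidation shortens very long and dicarboxylic fatty acids. Of its 21 tested genes 18 rose and none fell (14 up and 1 down by median ratio, 13 and 0 with the tag), at a median of 0.82, and 13 did not overlap between groups. Over all tested genes 39.9% rose and 23.7% did not overlap. Ehhadh (chromosome 16, 21761285 to 21787834), the bifunctional enzyme of its middle steps, lay at 24.2, 30.9 and 36.4 RPKM in control and at 165, 1025 and 1559 at 2 g/L, a log2 fold of 4.66 (SE 0.43, adjusted p = 9.36e-06). Acaa1b, the thiolase that ends each cycle, lay at 51.4, 75.4 and 96.9 in control and at 259, 812 and 1156 at 2 g/L, a log2 fold of 3.29 (SE 0.29, adjusted p = 7.61e-06). In both genes the treated libraries all lay above the controls. The fatty acyl importer Abcd3 (1.33), the carnitine acetyltransferase Crat (1.92) and the carnitine octanoyltransferase Crot (1.11) rose too. Catalase, Cat, which removes the hydrogen peroxide of peroxisomes, lay at 519, 584 and 678 in control and at 566, 657 and 718 at 2 g/L (0.12, SE 0.090, adjusted p = 0.306).

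In mitochondria 17 of 21 genes of β-oxidation and the carnitine shuttle rose and 1 fell (14 up and 1 down by median ratio, 14 and 1 with the tag), at a median of 0.71. Cpt2, which hands fatty acids from carnitine back to coenzyme A, lay at 21.0, 23.8 and 25.4 RPKM in control and at 35.8, 52.5 and 65.7 at 2 g/L, a log2 fold of 1.08 (SE 0.12, adjusted p = 1.83e-05). Acadm, the medium-chain dehydrogenase, rose by 1.17, Eci1 and Decr1, which handle unsaturated chains, by 1.63 and 1.46, and the trifunctional protein subunits Hadha and Hadhb by 0.71 and 1.07. Cpt1a, the liver form of the gate that admits fatty acids to the mitochondrion, lay at 38.0, 49.4 and 53.5 in control and at 45.1, 51.9 and 61.5 at 2 g/L, a log2 fold of 0.11 (SE 0.095, adjusted p = 0.348), with the groups overlapping. Of 5 genes of ketone body metabolism 3 rose and none fell (3 up and 0 down by median ratio, 3 and 0 with the tag). Acat1, the thiolase that joins acetyl-CoA units, was among them, from a median of 42.1 to 60.5 RPKM (0.52, SE 0.074).

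**Figure D1:**
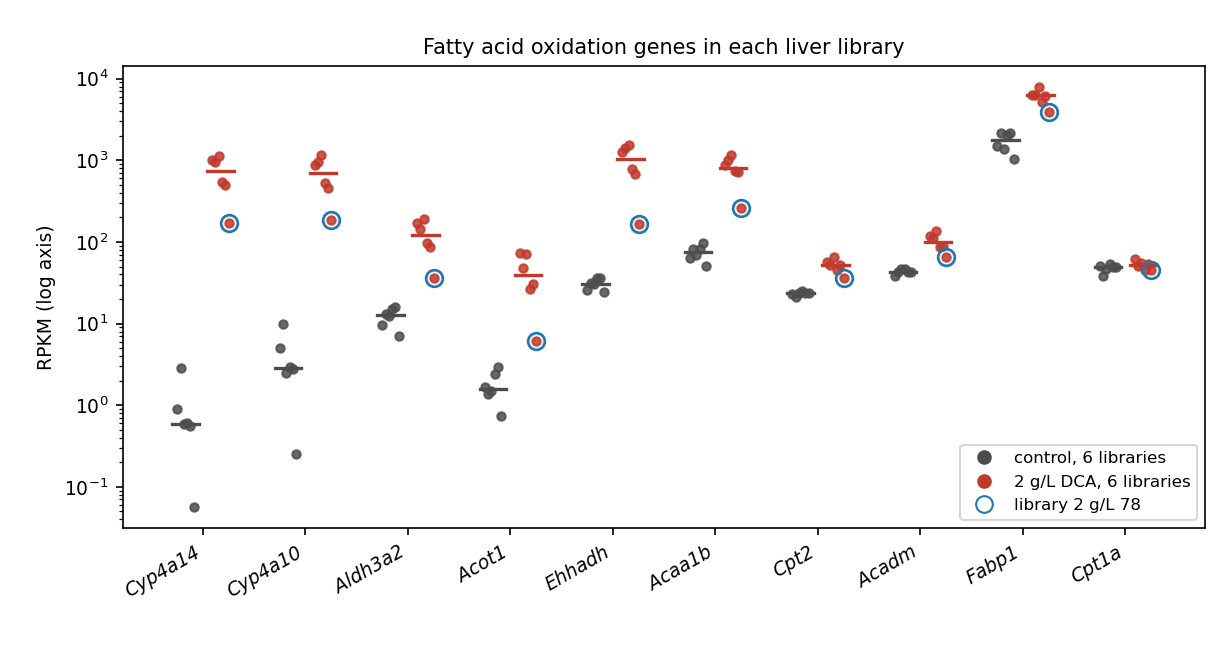
RPKM (log axis) of 10 genes of fatty acid oxidation and binding in each of the 6 control libraries (grey) and 6 libraries at 2 g/L DCA (red); bars are medians and a blue ring marks library 78. All treated libraries lie above all controls in each gene but Cpt1a, and library 78 is the lowest treated library in Cyp4a14, Ehhadh, Acot1 and Fabp1.

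Genes that bind, take up and store fatty acids rose in 9 of 16 tested members, and none fell (7 up and 1 down by median ratio, 5 and 0 with the tag). Fabp1, the main fatty acid carrier of the hepatocyte cytosol, was among the 10 most abundant called genes. It lay at 1039, 1785 and 2167 RPKM in control and at 3883, 6270 and 7916 at 2 g/L, a log2 fold of 1.82 (SE 0.21, adjusted p = 3.05e-05), without overlap. The acyl-CoA binding protein Dbi rose by 1.29, the monoglyceride lipase Mgll by 1.32, the fatty acid transporter Cd36 by 1.47 and the droplet-forming protein Fitm1 by 1.66, the last 2 with overlapping groups. Angptl4, a secreted lipase inhibitor and PPARα target, lay at 22.9, 26.8 and 31.9 in control and at 14.8, 37.6 and 44.2 at 2 g/L (0.12, SE 0.26, adjusted p = 0.725).

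The promoter of Fabp1 is shown with that of Apoc2, because each holds the letters of a DR1, the pair of half-sites spaced by a single base that PPARα and related receptors bind. The letters searched were a pair of AGGNCA half-sites in direct repeat with 1 base of any kind between them, on both strands, in RefSeq windows (GRCm38.p6) from 250 bases before to 50 after a start site. Of 32851 windows 125 (0.381%) hold them, and of the 93 genes with a called log2 fold of at least 1 and a window in the table, 2 do. The windows belong to 27025 symbols, tested here or not, and a gene can have more than 1. The share of windows and the count of genes are thus unlike units and give no measure of excess. The windows printed are the 250 bases before the start, 5′ to 3′ on the strand of the gene, with the match in capitals. That of Fabp1 lies on the plus strand of chromosome 6 at 71199629 to 71199878, with the match at −67 to −55 from the start and read on the opposite strand. That of Apoc2 lies on the minus strand of chromosome 7 at 19677942 to 19678191, with the match at −122 to −110.
Fabp1: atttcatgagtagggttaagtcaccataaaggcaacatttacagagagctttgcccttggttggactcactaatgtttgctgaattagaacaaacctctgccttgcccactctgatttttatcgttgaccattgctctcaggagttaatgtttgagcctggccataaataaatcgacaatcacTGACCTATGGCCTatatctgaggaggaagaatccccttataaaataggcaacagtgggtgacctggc
Apoc2: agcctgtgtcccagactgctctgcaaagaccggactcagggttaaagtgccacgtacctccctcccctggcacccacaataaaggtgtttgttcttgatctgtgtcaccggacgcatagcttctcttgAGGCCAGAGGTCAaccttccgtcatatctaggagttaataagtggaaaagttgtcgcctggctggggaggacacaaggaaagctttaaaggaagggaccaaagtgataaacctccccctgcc
Apoc2, the cofactor of lipoprotein lipase, lay at 84.9, 107 and 133 RPKM in control and at 197, 221 and 247 at 2 g/L, a log2 fold of 1.06 (SE 0.10, adjusted p = 1.06e-05), without overlap. A match of letters is a description of these windows. Cyp4a14 and Cyp4a10 have no window in the table.

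Genes of fatty acid and triglyceride synthesis moved in both directions, with 12 rises and 3 falls among 24 (10 up and 5 down by median ratio, 6 and 3 with the tag). Lpin1 (chromosome 12, 16535669 to 16653903), a phosphatidate phosphatase that also acts as a coactivator of PPARα, had the largest fall of the comparison among genes whose groups did not overlap. It lay at 35.2, 46.2 and 82.7 RPKM in control and at 4.19, 5.97 and 8.12 at 2 g/L, a log2 fold of −2.79 (SE 0.18, adjusted p = 9.56e-07). The highest treated library was far below the lowest control. Elovl3, an elongase of very long chains that is male-biased in mouse liver, lay at 168, 220.5 and 259 in control and at 28.8, 76.6 and 89.6 at 2 g/L, a log2 fold of −1.66 (SE 0.23, adjusted p = 0.00011). The malic enzyme Me1, a source of NADPH, went the other way, from a median of 12.2 to 44.6 RPKM (1.71, SE 0.21), and so did the elongases Elovl5 (1.38) and Elovl6 (1.22), the acyltransferase Gpam (1.15) and fatty acid synthase, Fasn (0.95, overlapping groups). Dgat2, which completes triglycerides, fell by 0.45 on the log2 scale.

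Apolipoproteins and lipoprotein handling had 4 rises and 10 falls among 21 (3 up and 12 down by median ratio, 3 and 4 with the tag). The particle assembly protein Mttp went from a median of 51.7 to 89.7 RPKM (0.69, SE 0.11). Apob, the backbone of very low density lipoprotein, lay at 749, 895 and 1046 in control and at 569.5, 622 and 671 at 2 g/L, a log2 fold of −0.52 (SE 0.088, adjusted p = 0.000394), without overlap. Apoa4 fell from a median of 32.5 to 14.9 (−1.14, SE 0.15). Of the abundant proteins of high density lipoprotein, Apoa1 was lower (−0.31, SE 0.095, adjusted p = 0.0171) and Apoa2 higher (0.39, SE 0.099, adjusted p = 0.00562), both without overlap.

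Bile acid genes had 7 rises and 5 falls among 18 (4 up and 11 down by median ratio, 2 and 3 with the tag). The share of rises was near the 39.9% over all tested genes, of which 8.76% fell. Cyp7a1, the rate-limiting enzyme of bile acid synthesis, lay at 2.27, 2.92 and 4.54 RPKM in control and at 6.26, 10.2 and 20.6 at 2 g/L, a log2 fold of 1.50 (SE 0.22, adjusted p = 0.000149). Nr0b2, the repressor known as SHP that acts on Cyp7a1, lay at 13.3, 16.6 and 20.3 in control and at 3.82, 6.77 and 9.20 at 2 g/L, a log2 fold of −1.25 (SE 0.19, adjusted p = 0.000176). Neither gene's groups overlapped. Nr1h4, the bile acid receptor FXR, rose by 0.61, and Fgfr4, the receptor for the gut hormone that restrains bile acid synthesis, fell by 0.40. Of the canalicular exporters, Abcb4 for phospholipid (1.04) and Abcg5 for sterol (0.89) rose, and Abcb11 for bile salts fell (−0.42). The sterol hydroxylase Cyp39a1 fell (−1.13), and Cyp8b1 lay at a log2 fold of −0.30 (SE 0.17, adjusted p = 0.16).

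Gstz1, the glutathione transferase that breaks DCA down to glyoxylate and is inactivated by it as a protein, lay at 109, 117 and 131 RPKM in control and at 120.3, 127 and 144 at 2 g/L, a log2 fold of 0.14 (SE 0.068, adjusted p = 0.0947), with overlap. Among the 9 genes of DCA breakdown, tyrosine and glyoxylate handling 3 rose and 3 fell (1 up and 5 down by median ratio, 1 and 0 with the tag). Grhpr, the reductase that clears glyoxylate, lay at 49.9, 56.4 and 61.7 in control and at 78.6, 89.2 and 101 at 2 g/L, a log2 fold of 0.67 (SE 0.079, adjusted p = 3.54e-05). The transaminases Agxt and Agxt2, which turn glyoxylate into glycine, both fell (−0.49 and −0.49). Without control libraries 5 and 8 and library 78, 1 rose and 3 fell. The kinases of pyruvate dehydrogenase come after the last symbol of the table held and were not analysed here.

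Of 19 genes of pyruvate entry and the citric acid cycle 13 rose and 1 fell (7 up and 2 down by median ratio, 4 and 0 with the tag), at a median of 0.30. The succinyltransferase Dlst of 2-oxoglutarate dehydrogenase lay at 27.1, 30.9 and 34.8 RPKM in control and at 42.5, 56.7 and 63.3 at 2 g/L, a log2 fold of 0.82 (SE 0.092, adjusted p = 2.28e-05). Mpc2, a subunit of the mitochondrial pyruvate carrier, rose by 0.50. Dlat, a core of pyruvate dehydrogenase, rose by 0.33 and citrate synthase, Cs, by 0.53.

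Nuclear genes of the respiratory chain rose almost throughout, each by a modest amount. Complex I, which takes electrons from NADH, had 34 rises in 37 subunits at a median of 0.43, and 29 of the 37 did not overlap between groups. Over all tested genes 39.9% rose and 23.7% did not overlap. Cytochrome oxidase, cytochrome c and ATP synthase had 29 rises in 29 genes at a median of 0.52. Ndufa12 lay at 23.8, 32.0 and 33.3 RPKM in control and at 44.5, 55.2 and 61.8 at 2 g/L, a log2 fold of 0.81 (SE 0.095, adjusted p = 3.29e-05). Atp5k, of ATP synthase, lay at 88.4, 113 and 127 in control and at 175, 204 and 216 at 2 g/L, a log2 fold of 0.84 (SE 0.090, adjusted p = 1.83e-05), and cytochrome c, Cycs, rose by 0.77. Proteins of the mitochondrial ribosome, which makes the core subunits of these complexes, rose in 71 of 77 genes at a median of 0.38, led by Mrps18b (0.89, SE 0.087). No gene of these 3 groups fell. Under median-ratio factors 27, 23 and 47 rose, and with the title tag as a term 25, 22 and 34. None fell in either.

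**Figure D2:**
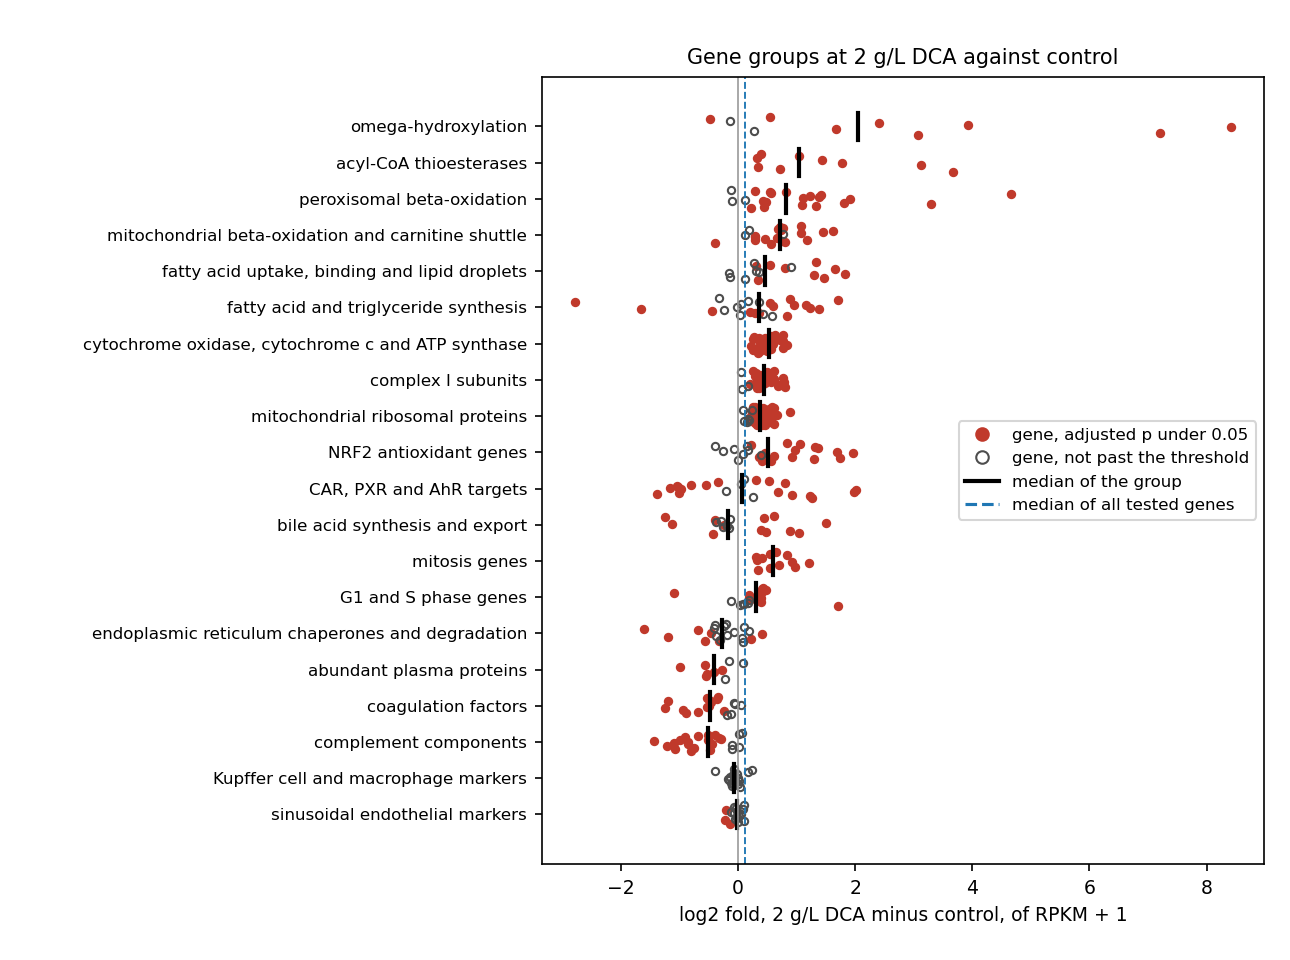
Log2 fold at 2 g/L against control (horizontal axis, of RPKM + 1) of each tested member of 20 gene groups; filled red points passed an adjusted p of 0.05, open points did not, black bars are group medians and the dashed line is the median of all tested genes, 0.12. Omega-hydroxylation has the highest median, 2.04, and complement components the lowest, −0.52.

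In carbohydrate metabolism 10 of 18 genes rose and 1 fell (7 up and 1 down by median ratio, 5 and 0 with the tag). The glycogen branching enzyme Gbe1 lay at 7.89, 10.6 and 12.4 RPKM in control and at 18.9, 24.1 and 32.3 at 2 g/L, a log2 fold of 1.21 (SE 0.13, adjusted p = 1.6e-05). Gpd2, the mitochondrial glycerol phosphate dehydrogenase, lay at 4.72, 4.99 and 5.24 in control and at 8.53, 10.8 and 12.4 at 2 g/L, a log2 fold of 0.96 (SE 0.071, adjusted p = 1.59e-06). Both separated the groups in full. The glycolytic dehydrogenase Gapdh rose by 0.61. Eno3, the muscle enolase, stood at −0.67 (adjusted p = 0.299), and 1 control library held it at 18.8 RPKM beside other muscle genes. Of 14 genes of insulin and FOXO signalling 3 rose and 2 fell (2 up and 3 down by median ratio, 0 and 1 with the tag). Foxo1, a transcription factor of gluconeogenesis, lay at 3.88, 5.60 and 6.85 in control and at 2.89, 3.29 and 3.34 at 2 g/L, a log2 fold of −0.60 (SE 0.10, adjusted p = 0.00041).

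Amino acid genes had 7 rises and 9 falls among 32 (4 up and 17 down by median ratio, 2 and 3 with the tag). Cps1, which starts the urea cycle, lay at 716, 815 and 938 RPKM in control and at 435, 522 and 669.5 at 2 g/L, a log2 fold of −0.63 (SE 0.12, adjusted p = 0.000818). The cytosolic aspartate transaminase Got1 fell by 0.69 and the mitochondrial Got2 rose by 0.37. In the methionine cycle and one-carbon group 4 of 22 rose and 2 fell (0 up and 8 down by median ratio, 0 and 2 with the tag). The fallen genes were Ahcy, which splits S-adenosylhomocysteine (−0.52, SE 0.081), and the choline-derived glycine enzyme Dmgdh (−0.69, SE 0.12). The counts of these 2 groups thus depend on the scaling and on the tag.

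Genes of foreign-compound metabolism split. Among 22 targets of the receptors CAR, PXR and AhR 9 rose and 9 fell (7 up and 9 down by median ratio, 3 and 6 with the tag). The share of rises was near the 39.9% over all tested genes, of which 8.76% fell. Cyp2b9 lay at 0.226, 0.675 and 1.32 RPKM in control and at 1.45, 5.83 and 12.6 at 2 g/L, a log2 fold of 2.01 (SE 0.34, adjusted p = 0.000406). Cyp2a4 lay at 0.277, 0.340 and 0.530 in control and at 1.81, 4.29 and 12.1 at 2 g/L, a log2 fold of 1.99 (SE 0.31, adjusted p = 0.000239). Both are female-predominant P450 genes in mouse liver and both separated the groups. Cyp2b10, the usual marker of CAR, lay at 0.0564, 0.584 and 1.04 in control and at 0.0755, 0.367 and 0.607 at 2 g/L (−0.20, SE 0.15, adjusted p = 0.277), and Cyp3a11, that of PXR, stood at 0.041 (SE 0.22, adjusted p = 0.894). Cyp1a2, the main AhR-responsive P450 of liver, fell from a median of 205 to 102 RPKM (−1.01, SE 0.12), and Cyp2e1, an alcohol-metabolising P450, from 1316 to 895 (−0.54, SE 0.11), neither with overlap. The Cyp2c genes Cyp2c29, Cyp2c37, Cyp2c50 and Cyp2c54 fell by 0.97, 1.17, 1.03 and 1.05, each with overlapping groups. Cyp2a, Cyp2b and Cyp2c genes have close copies, so their division is uncertain.

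Carboxylesterases, which split esters and amides of drugs and lipids, had 2 rises and 6 falls among 12 (2 up and 6 down by median ratio, 1 and 5 with the tag). Ces1c, a secreted esterase of plasma, lay at 691, 789 and 822 RPKM in control and at 252, 314 and 466 at 2 g/L, a log2 fold of −1.28 (SE 0.13, adjusted p = 1.6e-05). Ces1b (−1.54) and Ces2a (−1.39) fell as well without overlap, and Ces2c rose (1.19) with it. Antioxidant and conjugation genes driven by the factor NRF2 rose in 16 of 24 members, and none fell (13 up and 1 down by median ratio, 7 and 0 with the tag). Among the 24, 1 passed the filter through the treated libraries alone and rose. Without control libraries 5 and 8 and library 78, 17 rose and 1 fell. The microsomal epoxide hydrolase Ephx1 lay at 39.5, 54.8 and 64.2 in control and at 108, 182 and 271 at 2 g/L, a log2 fold of 1.74 (SE 0.18, adjusted p = 1.75e-05). Gsta2 rose by 1.70, Gsta1 by 1.96, Gstm3 by 1.36 and ferritin light chain, Ftl1, by 0.92. The gene of NRF2 itself, Nfe2l2, lay at 7.61, 8.73 and 10.8 in control and at 14.5, 21.0 and 23.9 at 2 g/L, a log2 fold of 1.06 (SE 0.13, adjusted p = 4.16e-05). Nqo1, a widely used target, rose by 0.83 at low RPKM, whereas Gclc, of glutathione synthesis, stood at 0.40 (SE 0.18, adjusted p = 0.0839). Gsta and Gstm copies may share reads. Gstt2, a theta-class glutathione transferase outside these lists, went from a median of 3.87 to 17.8 RPKM (1.96, SE 0.20).

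In the circadian clock 3 of 10 genes rose and 4 fell (2 up and 4 down by median ratio, 2 and 2 with the tag). The repressors Nr1d1 and Nr1d2, known as REV-ERBα and β, were the rises that stood out. Nr1d1 lay at 1.05, 1.6 and 2.17 RPKM in control and at 6.94, 12.1 and 17.8 at 2 g/L, a log2 fold of 2.33 (SE 0.17, adjusted p = 1.57e-06). Nr1d2 lay at 1.47, 1.73 and 2.18 in control and at 6.69, 7.24 and 9.37 at 2 g/L, a log2 fold of 1.62 (SE 0.083, adjusted p = 8e-08). Nfil3, a repressor of D-box genes, went from a median of 12.8 to 5.91 (−0.94, SE 0.10), and the activators Arntl (−0.22) and Npas2 (−0.26) fell slightly. The labels do not give the hour at which livers were taken, so a difference in hour was not tested. Of 17 immediate early genes 8 rose and none fell (6 up and 1 down by median ratio, 4 and 0 with the tag), a share near the 39.9% over all genes, with Jun (1.28, SE 0.16), Arrdc3 (1.11, SE 0.24) and Atf3 (0.74, SE 0.12) among the risen. With control libraries 5 and 8 and library 78 left out, 7 rose and 1 fell. Atf3, at most 0.319 RPKM in control, was tested only because the treated libraries were high. Fkbp5, a glucocorticoid-induced co-chaperone, fell from a median of 8.08 to 4.61 (−0.75, SE 0.11) as the only called member of 8 glucocorticoid-responsive and metallothionein genes (0 up and 2 down by median ratio, 0 and 1 with the tag).

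Heat shock proteins moved both ways. Hspa1b, an inducible cytosolic chaperone, lay at 6.92, 13.7 and 19.4 RPKM in control and at 1.10, 1.45 and 3.11 at 2 g/L, a log2 fold of −2.37 (SE 0.24, adjusted p = 1.37e-05), without overlap. Its near-identical copy Hspa1a fell by 0.87, and the co-chaperones Dnajb1 and Bag3 by 0.49 and 0.36. The mitochondrial chaperonins Hspd1 (0.66, SE 0.10) and Hspe1 (0.86, SE 0.11) rose. In all 8 of 19 rose and 4 fell (4 up and 5 down by median ratio, 2 and 1 with the tag). The share of rises was near the 39.9% over all tested genes, of which 8.76% fell.

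Of 20 chaperones and degradation factors of the endoplasmic reticulum 2 rose and 6 fell (0 up and 9 down by median ratio, 0 and 2 with the tag). Herpud1, a membrane protein of the degradation complex, lay at 87.1, 125 and 194 RPKM in control and at 26.2, 47.0 and 48.5 at 2 g/L, a log2 fold of −1.61 (SE 0.21, adjusted p = 5.88e-05). Derl3, another part of that complex, lay at 1.04, 2.85 and 5.49 in control and at 0.195, 0.265 and 2.29 at 2 g/L, a log2 fold of −1.20 (SE 0.32, adjusted p = 0.00708). Herpud1 separated the groups and Derl3 did not. Calreticulin, Calr, fell by 0.57 and Canx by 0.33, while the master chaperone Hspa5 stood at −0.25 (SE 0.21, adjusted p = 0.344). Of 5 motifs searched in the promoters of genes with a called log2 fold of at least 1, 2 are known from genes of the unfolded protein response, and the promoters of Herpud1 and Derl3 are shown because they hold them. The ER stress element was searched as CCAAT, 9 bases of any kind and CCACG, held by 39 of 32851 windows (0.119%), and its second form as ATTGG, 1 base of any kind and CCACG, held by 12 (0.0365%), both on both strands. The window of Herpud1 lies on the plus strand of chromosome 8 at 94386179 to 94386428, with the second form at −52 to −42. That of Derl3 lies on the plus strand of chromosome 10 at 75893148 to 75893397, with the first form at −156 to −138 on the opposite strand.
Herpud1: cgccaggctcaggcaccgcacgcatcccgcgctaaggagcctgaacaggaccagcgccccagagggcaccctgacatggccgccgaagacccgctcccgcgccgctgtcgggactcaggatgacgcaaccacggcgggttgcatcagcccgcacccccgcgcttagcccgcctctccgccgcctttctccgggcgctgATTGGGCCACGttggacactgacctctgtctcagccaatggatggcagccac
Derl3: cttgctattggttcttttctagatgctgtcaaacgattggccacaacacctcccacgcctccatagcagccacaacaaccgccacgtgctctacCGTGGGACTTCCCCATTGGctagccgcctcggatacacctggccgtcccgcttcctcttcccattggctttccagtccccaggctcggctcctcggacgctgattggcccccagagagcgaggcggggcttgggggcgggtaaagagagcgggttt
Each was the sole match to its letters among the 93 called genes with a log2 fold of at least 1 and a window. Of the same 93, none holds the letters searched as a heat shock element (GAA, 2 bases, TTC, 2 bases and GAA), which 198 windows hold (0.603%), and 13 hold the core of the antioxidant response element (TGAC, 3 bases and GC), which 4071 do (12.4%). As with the DR1, counts of genes and shares of windows are unlike units. Genes of the amino acid response led by ATF4 had 6 rises and 2 falls among 14 (4 up and 2 down by median ratio, 3 and 1 with the tag). Among the 14, 1 passed the filter through the treated libraries alone and rose. The share of rises was near the 39.9% over all genes, and log2 folds in the group ran from −0.51 to 0.87. The stress hormone Gdf15 lay at 0.323, 0.666 and 1.26 RPKM in control and at 1.14, 2.00 and 3.55 at 2 g/L (0.87, SE 0.18, adjusted p = 0.00149).

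Genes of the cell cycle rose in most of their tested members, though not with the tag as a term. Cyclin D1, Ccnd1 (chromosome 7, 144929931 to 144939831), which carries cells into the cycle, lay at 3.35, 4.33 and 5.15 RPKM in control and at 11.2, 16.5 and 22.4 at 2 g/L, a log2 fold of 1.71 (SE 0.15, adjusted p = 6.37e-06), without overlap. Of 22 genes of G1 and S phase 15 rose and 1 fell (9 up and 2 down by median ratio, 1 and 0 with the tag). The replication helicase subunits Mcm2, Mcm3, Mcm4, Mcm5, Mcm6 and Mcm7 rose by 0.37 to 0.48, from medians near 1 RPKM, as in Mcm5 at 0.379, 0.633 and 1.03 in control and 0.933, 1.23 and 1.92 at 2 g/L. Mcm10 went the other way (−1.10, SE 0.30). Of the 23 mitosis genes held, 12 passed the filter, and these 12 rose (10 up and 0 down by median ratio, 0 and 0 with the tag). Cdc20, which opens anaphase, lay at 0.461, 0.753 and 1.03 in control and at 1.17, 2.82 and 5.56 at 2 g/L, a log2 fold of 1.21 (SE 0.21, adjusted p = 0.000501). Cyclin B1, Ccnb1, rose by 0.97 and the proliferation marker Mki67 by 0.54, the latter with overlap. Given the tag as a term, 0 of the 12 mitosis genes passed limma's test, with Cdc20 at 0.64 (adjusted p = 0.28), and 1 of the 22 G1 and S genes did, Ccnd1 at 1.39. A gene at low RPKM passes the filter more easily where the treated libraries are high, so the 12 are not a count over all mitosis genes. Without control libraries 5 and 8 and library 78, an alternative chosen after seeing the data, 8 mitosis genes and 8 genes of G1 and S phase rose.

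Genes of the p53 response rose in 8 of 13 members, and none fell (7 up and 0 down by median ratio, 3 and 0 with the tag), with the death receptor Fas (0.73, SE 0.14) and Ccng1 (0.70, SE 0.17) among them. Among the 13, 1 passed the filter through the treated libraries alone and rose. Cdkn1a, the p21 inhibitor of the cycle, lay at 3.13, 6.20 and 10.1 RPKM in control and at 3.31, 4.87 and 7.52 at 2 g/L (−0.22, SE 0.23, adjusted p = 0.456). Translation initiation factors rose in 42 of 53 members and 2 fell (28 up and 3 down by median ratio, 15 and 1 with the tag), led by Eif6 (0.74, SE 0.066), which acts in assembly of the large ribosomal subunit. Nucleolar factors of ribosome assembly rose in 18 of 23 and none fell (7 up and 0 down by median ratio, 2 and 0 with the tag). These last 2 groups moved by little, at medians of 0.32 each.

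Most coagulation factors, complement components and abundant plasma proteins fell, and none of these 3 lists had a rise. Of 18 coagulation factors 13 fell (0 up and 15 down by median ratio, 0 and 9 with the tag), at a median of −0.48. Coagulation factor V, F5, lay at 65.7, 70.4 and 78.7 RPKM in control and at 25.6, 28.3 and 34.5 at 2 g/L, a log2 fold of −1.25 (SE 0.076, adjusted p = 4.85e-07). Prothrombin, F2, lay at 416, 449 and 458 in control and at 195, 226 and 284 at 2 g/L, a log2 fold of −0.94 (SE 0.091, adjusted p = 1.16e-05). Hgfac, a protease that activates hepatocyte growth factor, fell by 1.20. In these 3 genes the groups did not overlap. The 3 fibrinogen chains did not pass the test, with Fgb at −0.061 (SE 0.18, adjusted p = 0.804).

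Of 23 complement components 18 fell (0 up and 20 down by median ratio, 0 and 11 with the tag), at a median of −0.52. C9, the pore-forming component, lay at 204, 266 and 441 RPKM in control and at 83.7, 101 and 118 at 2 g/L, a log2 fold of −1.43 (SE 0.17, adjusted p = 3.05e-05). C4b lay at 124, 150.1 and 193 in control and at 52.2, 69.7 and 72.5 at 2 g/L, a log2 fold of −1.21 (SE 0.11, adjusted p = 9.24e-06), and C8b at 119, 147 and 172 and 58.0, 60.5 and 84.6 (−1.10, SE 0.12, adjusted p = 1.92e-05). None of these overlapped between groups. Falls came from each route of activation. C2 (−1.08) and C1ra (−0.80) are of the classical route, Masp2 (−0.51) of the lectin route and Cfb (−0.99) of the alternative route, and the inhibitor Cfi (−0.91) fell as well. C3, on which the routes meet, fell from a median of 1249 to 769 (−0.76, SE 0.15), with the highest treated library just inside the control range.

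Other abundant plasma proteins fell in 6 of 9 members (0 up and 7 down by median ratio, 0 and 2 with the tag). Albumin, Alb, the highest gene of the tables, lay at 17250, 21950 and 23480 RPKM in control and at 11890, 14730 and 20580 at 2 g/L, a log2 fold of −0.53 (SE 0.17, adjusted p = 0.0177), with overlap. Fetub lay at 81.6, 86.1 and 102 in control and at 38.2, 41.5 and 60.2 at 2 g/L, a log2 fold of −0.998 (SE 0.10, adjusted p = 1.55e-05), without it. The protease inhibitor Mug1 lay at 947, 1085 and 1198 in control and at 295, 365 and 452 at 2 g/L, a log2 fold of −1.52 (SE 0.11, adjusted p = 1.47e-06). Acute-phase proteins were uneven, with 5 falls among 18 and no rise (0 up and 6 down by median ratio, 0 and 1 with the tag). Leaving out control libraries 5 and 8 and library 78 gave 1 rise and 5 falls. The interleukin 6 receptor chain Il6ra (−1.21, SE 0.16) and the interleukin 1 receptor Il1r1 (−1.03, SE 0.17), through which that response is set off, fell without overlap. Haptoglobin, Hp, lay at 847, 1015 and 3108 in control and at 547, 1151 and 2172 at 2 g/L (0.080, SE 0.36, adjusted p = 0.875), and Lcn2 at 2.89, 4.4 and 153 and 5.16, 18.1 and 125 (1.52, SE 0.96, adjusted p = 0.21). For Hp and Lcn2 the highest control value was that of library 8.

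**Figure D3:**
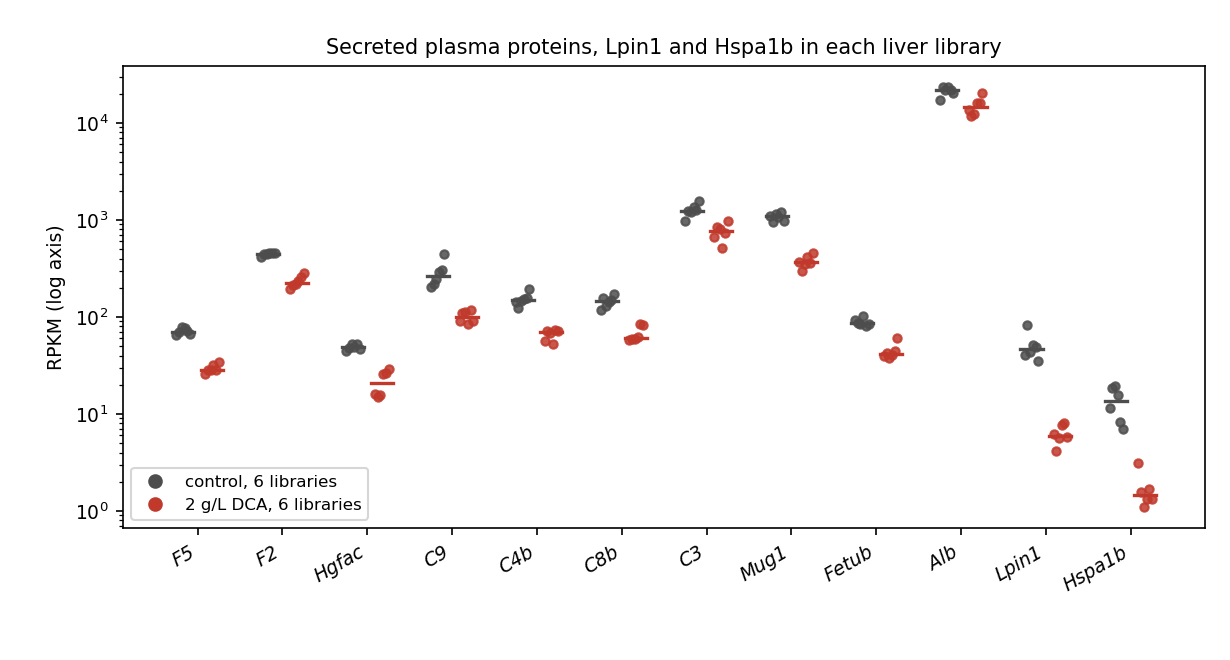
RPKM (log axis) in each of the 6 control libraries (grey) and 6 libraries at 2 g/L DCA (red) of 10 secreted plasma proteins, of Lpin1 and of Hspa1b; bars are medians. All treated libraries lie below all controls except in C3 and Alb, whose groups overlap.

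Of 19 hepatocyte transcription factors and nuclear receptors 7 rose and 1 fell (2 up and 1 down by median ratio, 1 and 0 with the tag), near the share over all genes. The identity factor Hnf4a lay at 84.2, 93.2 and 112 RPKM in control and 77.7, 95.4 and 108 at 2 g/L (0.012, SE 0.088, adjusted p = 0.924). Of 16 male-biased liver genes 1 rose and 7 fell (1 up and 8 down by median ratio, 1 and 3 with the tag). Of 8 tested female-biased genes 4 rose and 4 fell (3 up and 4 down by median ratio, 2 and 2 with the tag). Among the 8, 1 passed the filter through the treated libraries alone and rose. Mup21 lay at 60.8, 83.5 and 102 in control and at 6.55, 18.9 and 40.6 at 2 g/L, a log2 fold of −2.05 (SE 0.31, adjusted p = 0.00018), and Cyp2c40 lay at 17.0, 32.6 and 131 and 0.532, 6.44 and 27.8 (−2.66, SE 0.67, adjusted p = 0.00543). The groups of Cyp2c40 overlapped, those of Mup21 did not, and both belong to families whose copies may share reads. Of 19 major urinary protein genes 1 rose and 2 fell (0 up and 2 down by median ratio, 0 and 0 with the tag). The growth hormone receptor Ghr fell by 0.34, the hepatokine gene Inhbc went from a median of 22.3 to 11.1 (−0.84, SE 0.10), and Igf1 stood at −0.20 (SE 0.15, adjusted p = 0.285).

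Genes of both zones of the lobule moved both ways. Among 12 pericentral genes 2 rose and 6 fell (2 up and 7 down by median ratio, 1 and 3 with the tag), with Glul, the marker of the innermost cells, at 116, 134 and 144 RPKM in control and 122, 144 and 186 at 2 g/L (0.18, SE 0.095, adjusted p = 0.138). Among 12 periportal genes 2 rose and 3 fell (2 up and 8 down by median ratio, 2 and 1 with the tag), with Cyp2f2 at −0.20 (SE 0.097, adjusted p = 0.107). Hsd11b1, which regenerates active glucocorticoid in hepatocytes, went from a median of 148 to 68.8 (−1.09, SE 0.13). The intermediate filament genes Krt8 and Krt18, the keratins of hepatocytes, rose by 1.02 and 1.25 without overlap. These 3 genes stand outside the lists and were chosen after their values were seen.

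Among markers of other liver cells, the Kupffer and sinusoidal endothelial lists gave few calls beside the 48.7% over all tested genes. The stellate and fibroblast list gave calls near that share. In bulk tissue fewer cells of a type and less RNA per cell cannot be told apart. Of 19 Kupffer cell and macrophage genes 0 passed limma's test, and the summed level of the 20 held ran from 140 to 200 RPKM in control and from 97.6 to 201 at 2 g/L. At an unadjusted p under 0.05 the count was 0 of 19, and under median-ratio factors 2 fell. Clec4f, the marker of Kupffer cells, lay at 20.0, 22.1 and 26.7 in control and at 14.2, 20.1 and 23.9 at 2 g/L. Of 17 sinusoidal endothelial genes 3 fell (0 up and 6 down by median ratio, 0 and 0 with the tag), at a median of −0.025, and the sum ran from 94.9 to 112 in control and from 95.8 to 109.7 at 2 g/L. Stellate and fibroblast genes had 3 rises and 4 falls among 15 (0 up and 7 down by median ratio, 0 and 0 with the tag). Their median log2 fold was −0.16, and their log2 folds ran from −0.52 to 0.48. The vitamin A enzyme Lrat, at 0.43, was among the rises, and did not pass with median-ratio factors or with the tag. Without control libraries 5 and 8 and library 78, 1 endothelial gene fell, and 1 stellate gene rose and 2 fell. Of the lymphocyte and neutrophil lists no member passed the filter on low values, and their sums stayed at or below 2.80 RPKM in every library. None of the members held in any of these lists was at 0 in all 12 libraries.

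Of 10 tested red cell genes 1 rose and 5 fell at 2 g/L (1 up and 7 down by median ratio, 0 and 0 with the tag). The erythroid haem enzyme Alas2 lay at 31.2, 37.0 and 55.4 RPKM in control and at 14.8, 20.2 and 29.5 at 2 g/L, a log2 fold of −0.82 (SE 0.16, adjusted p = 0.001). The summed level of 17 erythroid genes ran from 323 to 1080 RPKM in control and from 256 to 563 at 2 g/L. Without control libraries 5 and 8 and library 78, 1 erythroid gene rose and 1 fell. Of 28 interferon-induced genes 3 rose and 8 fell (0 up and 11 down by median ratio, 1 and 0 with the tag), with Irf7 at 4.42, 4.83 and 6.49 in control and 1.44, 3.25 and 3.94 at 2 g/L (−0.70, SE 0.17, adjusted p = 0.00377). Without the 3 libraries just named 9 fell and none rose.

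Control library 5 held transcripts of skeletal muscle, a group added after the values were seen. The summed level of 13 muscle genes was 648 RPKM there, 34.6 in control 6 and from 2.64 to 5.79 in the other 10 libraries. Acta1, the actin of skeletal muscle, was at 230 RPKM in control 5, 8.12 in control 6 and at most 0.188 elsewhere. Only 3 of the 13 genes passed the filter. Leaving out control 5 gave 2829 calls in place of 3074, and leaving out control 5, control 8 and library 78 together gave 2669, with 2171 rises and 498 falls.

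The 6 treated libraries were not alike. For each group of genes a library's level was taken as the mean log2(RPKM + 1) of the tested members minus the control mean. For peroxisomal β-oxidation it was 1.23, 1.21, 1.35, 1.05 and 1.11 in libraries 73 to 77 and 0.58 in library 78, against −0.13 to 0.11 in controls. The NRF2 group was likewise highest in library 75, at 1.02, and lowest in library 78, at 0.27. Mitosis genes had another order, with 1.03 in library 76, 1.01 in library 78 and 0.06 in library 74, which lay inside the control range of −0.10 to 0.12. Coagulation factors stood at −0.67 in library 73 and −0.23 in library 78, and complement at −0.73 and −0.49 in the same libraries, each below every control. Endoplasmic reticulum genes were at 0.21 in library 78 and −0.24 in library 73, both inside the control range of −0.32 to 0.29, and lower than every control in the other 4. Without library 78 limma made 3050 calls, so the count over all genes moved little.

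**Figure D4:**
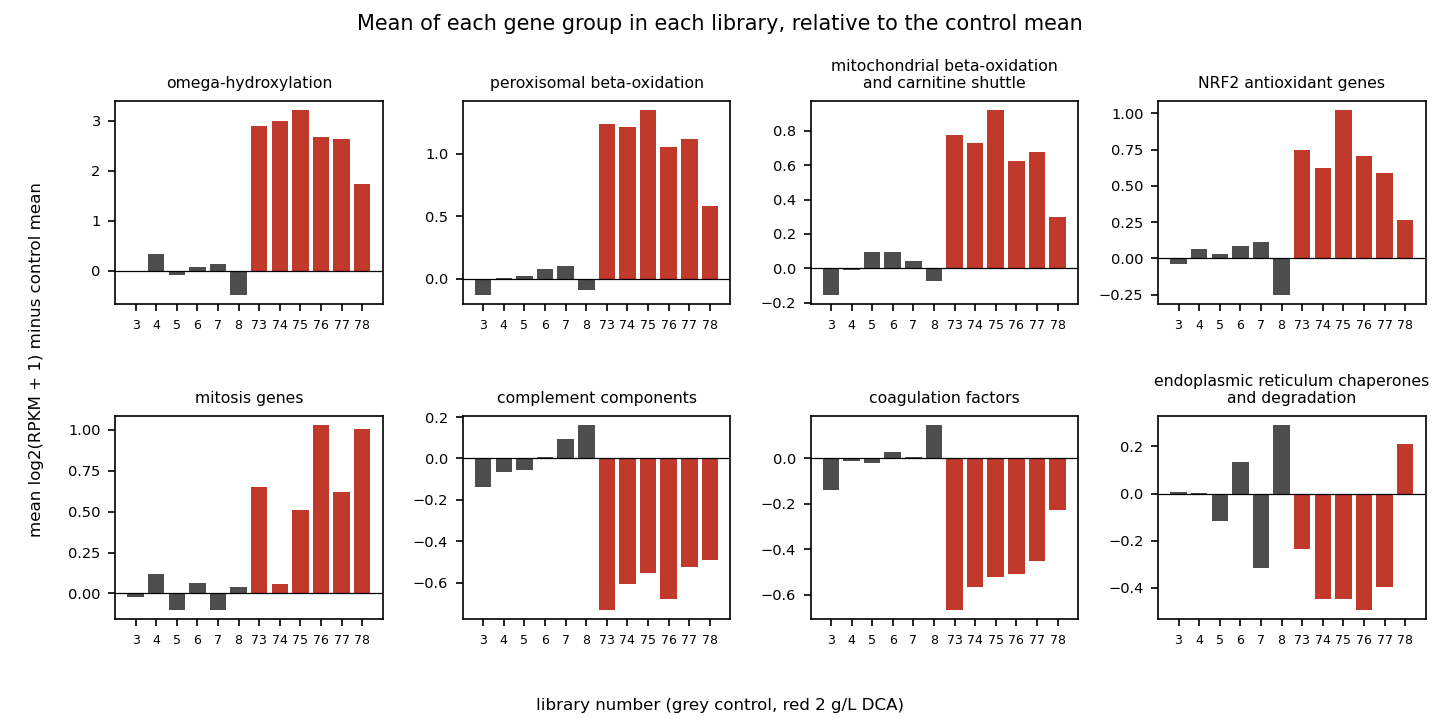
Mean log2(RPKM + 1) of the tested members of 8 gene groups in each library, minus the mean of the 6 controls (vertical axes differ between panels); control libraries 3 to 8 are grey and 2 g/L libraries 73 to 78 are red. Library 78 has the smallest rise in the 3 fat oxidation groups and one of the 2 highest levels of mitosis genes.

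The doses on either side place 2 g/L within the series. These contrasts share the 2 g/L libraries with the comparison above, so their values are given side by side. Against 1 g/L, 1313 of 6321 genes rose (20.8%) and 325 fell (5.14%), together 25.9%. With only the 3 libraries at 1 g/L that carry the tag L2, 432 rose and 151 fell. Cyp4a14 lay at 0.708, 2.17 and 6.62 RPKM at 1 g/L, and its log2 fold from there to 2 g/L was 7.57 (SE 0.45, adjusted p = 8.29e-07). Ehhadh lay at 30.1, 41.0 and 43.7 at 1 g/L (4.31, SE 0.42, adjusted p = 4.68e-05). Of 21 peroxisomal genes 16 rose over this step, and of 21 mitochondrial β-oxidation genes 17. Cyp4a14 and Ehhadh thus had most of their rise between 1 and 2 g/L. The step of Ccnd1 was 1.56 (SE 0.16, adjusted p = 5.47e-05).

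For other genes the median moved mostly below 1 g/L. Lpin1 lay at 3.87, 8.34 and 9.73 RPKM at 1 g/L, and its step from there to 2 g/L was −0.27 (SE 0.18, adjusted p = 0.3). Fkbp5 had medians of 8.08, 3.43 and 4.61 RPKM at 0, 1 and 2 g/L. The medians of F5 and Nr1d1 moved over both intervals, at 70.4, 40.0 and 28.3 and of 1.6, 3.88 and 12.1. Elovl3 stood at 183 at 1 g/L and fell over the step (−1.44, SE 0.22, adjusted p = 0.000529). Gpr110 (−1.23, SE 0.23, adjusted p = 0.00207) and Gbp11 (−1.25, SE 0.32, adjusted p = 0.0115) were among the 6 largest falls of the step.

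From 2 to 3.5 g/L, 238 of 6314 genes rose (3.77%) and 218 fell (3.45%), together 7.22%. These counts moved with single libraries: 223 genes in all were called without 3.5 g/L library 102, 278 without 99 and 288 without 101, and the falls alone came to 145 without 3.5 g/L library 100 and 131 without 2 g/L library 75. The dose and the tag cannot be told apart there, since all 3.5 g/L libraries carry L3. Cyp4a14 lay at 737, 1126 and 1467 RPKM at 3.5 g/L, and its step was 0.84 (SE 0.39, adjusted p = 0.2), while that of Ehhadh was 0.56 (SE 0.45, adjusted p = 0.475). The thioesterase Acot3 went on rising, to 16.6, 29.4 and 62.7 (3.14, SE 0.42, adjusted p = 0.00224), and so did Cyp2b9 (2.52, SE 0.48, adjusted p = 0.00929) and Cyp2a4 (2.81, SE 0.40, adjusted p = 0.0029). C9 fell further (−1.22, SE 0.20, adjusted p = 0.00528), with 11 of 23 complement components fallen over this step. Lcn2, an acute-phase gene that did not pass the test at 2 g/L against control, had a large fall from 2 to 3.5 g/L (−3.10, SE 0.69, adjusted p = 0.0194), and 9 of 18 acute-phase genes fell over the step. Nr0b2 rose again over the step (1.01, SE 0.18, adjusted p = 0.00694), to a median of 13.6 RPKM, and Cyp39a1 to 8.25 (1.17, SE 0.27, adjusted p = 0.0233).

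**Figure D5:**
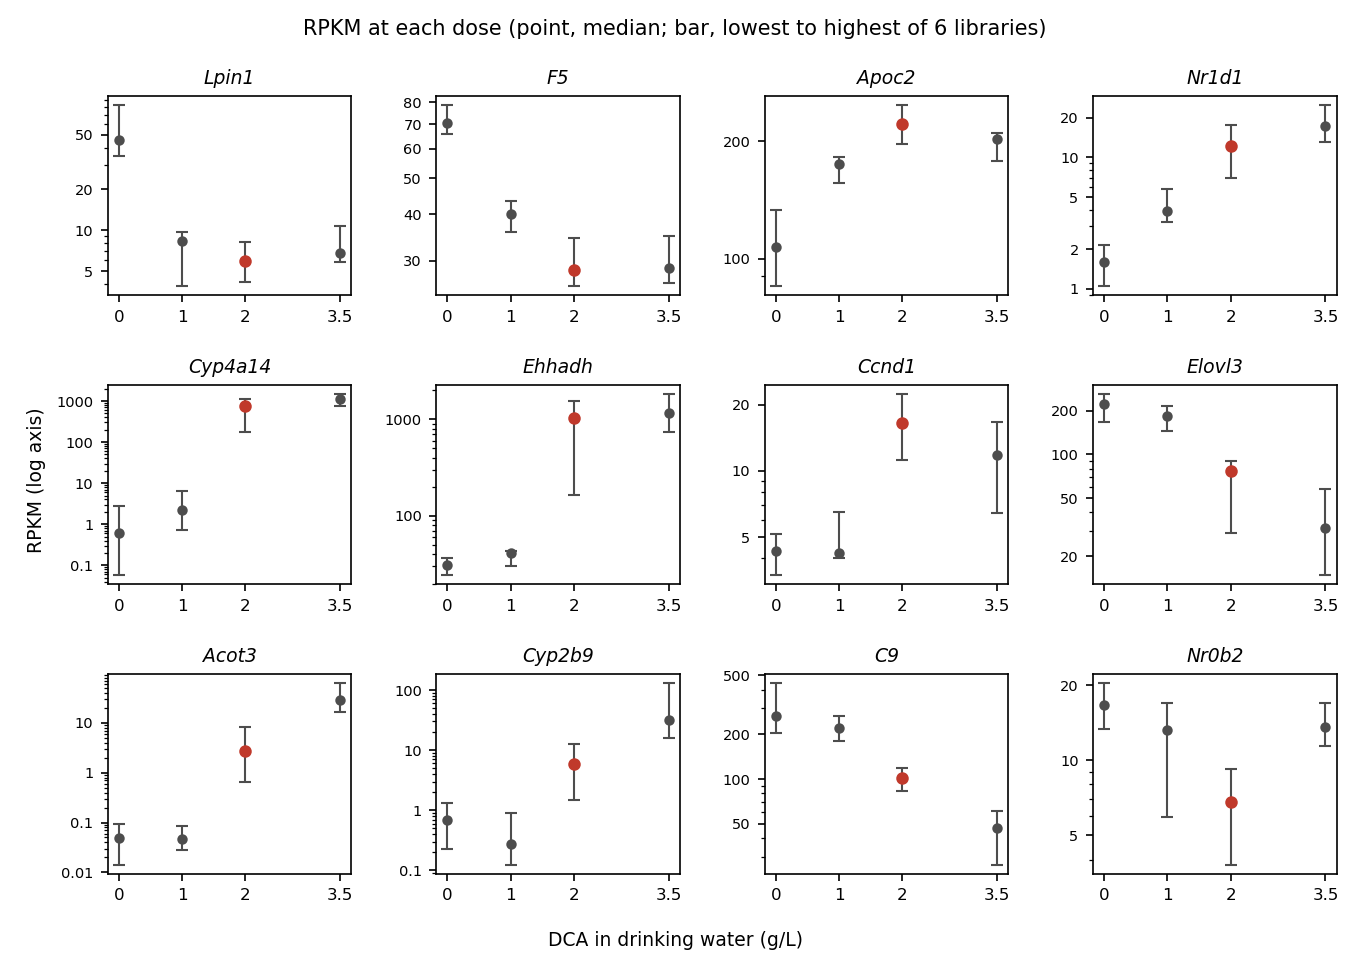
RPKM (log axis) of 12 genes against the dose of DCA (g/L); points are medians and bars run from the lowest to the highest of 6 libraries, with the 2 g/L median in red. Lpin1 is low from 1 g/L on, Cyp4a14 and Ehhadh are high from 2 g/L on, and Acot3 and Cyp2b9 are highest at 3.5 g/L.

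For single genes the title tag ended more calls than leaving out any library. Apoe (−0.29), Ddit3 (−0.42), Hao1 (−0.35), Idh2 (−0.40) and Hba-a1 (−0.80) fell, but each missed the threshold without at least 4 of the 12 libraries, taken singly, and these were the 5 named genes of which that was so. Of the 167 genes named in the text as risen or fallen, 54 did not pass the test once the tag was a term, with the same direction of fold, the 5 just given among them. Among lipid and bile acid genes these were Cyp4f14, Cd36, Fasn, Apoa1, Apoa2, Cyp7a1, Nr0b2 and Nr1h4, and Cyp7a1 stood at 1.51 (adjusted p = 0.0605) and Nr0b2 at −0.86 (adjusted p = 0.136). Among metabolic genes they were Agxt, Agxt2, Dlat and Cs, and among genes of foreign compounds Cyp2a4, Cyp2c50, Cyp2c54, Cyp2e1, Nqo1 and Gstm3. Cyp2a4 stood at 1.50 (adjusted p = 0.055). Among stress and clock genes they were Npas2, Arrdc3, Hspa1a, Dnajb1, Bag3, Hspd1, Calr and Derl3, and among cell cycle genes Cdc20, Ccnb1, Mki67, Ccng1 and the 7 Mcm genes. The others were Alb, C3, Il1r1, Irf7, Cyp2c40, Mup21, Ghr, Lrat, Alas2, Gpr110, the water channel gene Aqp8 and the DNA methyltransferase gene Dnmt1. Cyp4a14 stood at 7.38, Ehhadh at 4.46, Lpin1 at −3.15 and F5 at −1.40 in that fit, and all 4 passed. With median-ratio factors Apoa2, Dlat, Dnmt1, Lrat, Mcm6 and Mki67 did not pass, while Clec4f, Cyp2f2 and Cyp8b1 did. With quantile normalization Alb, Apoa1, Dlat, Lrat and Mcm6 did not pass, and with no filter on low values Alb, Apoa1, Apoa2, Apoe, Ddit3, Hba-a1 and Idh2 did not. In the fit on 24 libraries Arntl and Npas2 did not pass, nor did Arntl, Bag3, Hba-a1, Mcm4, Mcm6 and Mki67 without control libraries 5 and 8 and library 78. Leaving out a single library brought Lcn2 (control 8), Cyp4a12a and Gclc (library 78), Gstz1 (control 7) and Cyp2f2 and Gbp11 (library 77) past the threshold, and without control 8 the log2 fold of Lcn2 was 2.36 (adjusted p = 0.0156).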

How the data were processed

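RNA of frozen liver was sequenced on an Illumina HiSeq after a stranded total RNA preparation with removal of ribosomal RNA, per the labels' protocols. Values are RPKM as the authors deposited them, in 1 table of 24 libraries. CASAVA, STAR 2.4, Partek and the build mm10 are named in the submitters' processing notes, with no order or role. The annotation and the strand setting were not given in the sources used here. In the table zeros are written as 0.0001. It was held up to the symbol Olfr272, and later symbols were not analysed here. After 1 line that was cut short and 13 symbols turned into dates were dropped, 15582 genes remained.

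Groups came from the dose in the labels. limma 3.58.1 (R 4.3.3, trended variance, two-sided, Benjamini-Hochberg adjustment at 0.05) was run on log2(RPKM + 1), after tests on simulated data in which 84 of 100 genes changed 1.5-fold and 91 of 100 changed 2-fold were recovered, with 8 false calls among 6113. The changed genes were drawn among those with a mean log2(RPKM + 1) above 1, so recovery at lower levels was not tested. Scatter was simulated for each gene apart, without differences of scaling, library or tag that genes share. The false calls therefore do not cover such differences. RPKM are not counts, so no count test was run. Whether each sample came from a separate mouse is not in the labels, so a p-value reflects no more than the scatter among these samples, which may be technical.

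The genes named were the 15 largest rises and falls without overlap, key genes and up to 4 called members of each list, the 10 most abundant called genes and the 6 largest changes of each dose step. Further list members, and genes outside the lists, were named after their values were seen. The members of the comparison and the lists were chosen with earlier results of these data known. Alternatives were other pseudocounts, filters, scalings, fits and libraries left out. Some genes are not reported here.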

Additional observations from a re-analysis of the deposited data

Results flagged for a closer look

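Among 376 groups of 6 libraries, 27 held a library whose gap to the nearest of the others passed Dixon's critical value at the 95% level. The gap and the range it is set against were taken on log2(RPKM + 1), while the values given below are RPKM. Chance gives about 1 in 20 groups, and genes of a library are not independent. Library 78 of 2 g/L was such a library in 9 genes. It was the lowest treated library in Abcd3 (90.0 RPKM, next 170.0), Acaa1b (259, next 719), Dlst (42.4, next 55.4), Ehhadh (165, next 673), Elovl3 (28.8, next 68.2), Elovl5 (136, next 201) and Mttp (62.2, next 83.1). It was the highest in Calr (310.0, next 211) and Fetub (60.2, next 44.9).

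Control library 8 was highest in Calr (414 RPKM, next 310.0), Fgb (3050, next 1860), Hp (3110, next 1020) and Lcn2 (153, next 4.68), and lowest in Ces1c (691, next 780) and Gstm3 (5.73, next 13.7). Control library 5, which held muscle transcripts, was highest in Ccng1 (10.6, next 5.49), Cd36 (5.76, next 2.90), Eno3 (18.8, next 1.61) and Fitm1 (2.95, next 1.01).

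Control library 3 was lowest in Ahcy (265 RPKM, next 309), F2 (416, next 443) and Ndufa12 (23.8, next 30.1), and highest in Ces1b (93.9, next 57.8). Control library 6 was highest in Crot (165, next 128). Among treated libraries, 76 was lowest in Clec4f (14.2, next 19.8) and highest in Elovl6 (20.1, next 13.5), and 75 was highest in Mcm4 (2.51, next 1.33).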

How the results depend on the processing

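The count of genes called at 2 g/L against control stayed within 1.5 times of 3074 under the other pseudocounts, filters, scalings, variance settings and the fit on 24 libraries, and ran from 2664 to 3050 with single libraries left out. With the title tag as a term it was 858, with 621 rises and 237 falls, and with a log2 fold of at least 1 as a second condition 124, with 85 rises and 39 falls. Rises were 82.0% of the calls. Under median-ratio factors 1192 genes rose and 1150 fell (50.9% rises), and under quantile normalization 1146 rose and 1099 fell (51.0% rises). A like count did not mean the same genes. Of the 3074 calls, 1745 were also called under median-ratio factors, 1696 under quantile normalization and 830 with the title tag as a term. Against 1 g/L, median-ratio factors gave 663 rises and 625 falls, and the L2 libraries of 1 g/L alone gave 583 calls, 432 rises and 151 falls. From 2 to 3.5 g/L, leaving out single libraries gave 223 to 475 calls, 128 to 243 rises and 95 to 232 falls.

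Direction changed in 8 named genes, none of which passed the test in either fit. Under median-ratio factors the log2 fold was −0.048 for Angptl4, −0.059 for Cat, −0.060 for Cpt1a, −0.13 for Cyp3a11, −0.031 for Gstz1, −0.16 for Hnf4a and −0.096 for Hp. Under quantile normalization it was −0.068 for Angptl4, −0.065 for Cpt1a, −0.009 for Cyp3a11 and −0.12 for Hnf4a. With the title tag as a term it was −0.28 for Angptl4, −0.087 for Cpt1a and −0.58 for Cyp3a11. Without control libraries 5 and 8 and library 78, Cyp3a11 stood at −0.22. With single libraries left out Cyp3a11 ran from −0.14 to 0.15, Fgb from −0.16 to 0.078, Hnf4a from −0.023 to 0.070 and Hp from −0.086 to 0.36. The causes were not tested. No paired analysis was possible because the groups share no replicate numbers. RPKM of low genes rest on few reads, and their folds are understated by the pseudocount of 1.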

Other observations

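Several genes outside the groups of the report changed strongly at 2 g/L. Ly6d, a surface protein of the Ly6 family, lay at 0, 0.0253 and 0.102 RPKM in control and at 0.668, 4.42 and 8.04 at 2 g/L, a log2 fold of 2.18 (SE 0.33, adjusted p = 0.00019). Hsdl2, a peroxisomal dehydrogenase-like protein, lay at 8.05, 8.91 and 9.73 in control and at 14.8, 32.0 and 42.2 at 2 g/L, a log2 fold of 1.62 (SE 0.19, adjusted p = 3.05e-05). Acss3, a mitochondrial acyl-CoA synthetase, rose by 1.58. Lrtm1 lay at 1.51, 1.91 and 2.86 in control and at 0.0387, 0.0884 and 0.294 at 2 g/L, a log2 fold of −1.39 (SE 0.10, adjusted p = 1.59e-06), and the amylase gene Amy1 at 45.0, 51.2 and 58.8 and 15, 19.6 and 23.6 (−1.38, SE 0.12, adjusted p = 6.29e-06). In each of these 5 genes the groups did not overlap. Ly6d passed the filter through the treated libraries alone and Lrtm1 through the controls alone. For these genes the filter itself set the lack of overlap, which is no support for the change.

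Other gene groups held fewer or smaller changes, with counts by median ratio and with the title tag in brackets. Of 9 genes of haem synthesis and breakdown 3 rose and none fell (3 up and 1 down by median ratio, 2 and 0 with the tag), with the coproporphyrinogen oxidase Cpox at 0.85 (SE 0.12, adjusted p = 0.000111). Of 4 tested aquaporins 2 rose (1 up and 0 down by median ratio, 0 and 0 with the tag), and the water channel Aqp8 stood at 0.84 (SE 0.25, adjusted p = 0.0141). Of 23 lysosomal genes 4 rose and 6 fell (0 up and 10 down by median ratio, 0 and 1 with the tag), with the mannosidase Man2b1 at −0.66 (SE 0.061, adjusted p = 9.24e-06). Of 7 writers and readers of DNA methylation 2 rose and 2 fell (0 up and 3 down by median ratio, 0 and 0 with the tag), with the maintenance methyltransferase Dnmt1 at 0.23 (SE 0.052, adjusted p = 0.00287). Of 20 hnRNP proteins, which bind nascent RNA, 9 rose and 1 fell (2 up and 1 down by median ratio, 0 and 1 with the tag), and of 12 MHC genes 2 fell (0 up and 3 down by median ratio, 0 and 0 with the tag). Of 4 flavin-containing monooxygenases 2 rose and 1 fell (2 up and 1 down by median ratio, 0 and 1 with the tag), and neither of 2 tested cholangiocyte markers passed limma's test, while 39.9% of all tested genes rose and 8.76% fell. With the title tag as a term Aqp8 and Dnmt1 did not pass.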
